A study of Mus musculus with 8 samples.

Results

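The genes described here are the chemokine ligands and chemokine receptors that have a probe set of their own on the array, meaning one to which the array annotation gives 1 gene symbol. They were taken by symbol, as Ccl, Cxcl, Cx3cl1 and Xcl1 for ligands and Ccr, Cxcr, Cx3cr1 and Ackr for receptors. This gave 54 genes, 34 ligands and 20 receptors, of 22180 genes with such a probe set. Ccl27a alone had 2 probe sets, and the one with the higher mean over the 8 arrays was kept. Another 33 probe sets carried several symbols including one of the family. The genes found only there, among them the CCR7 ligands Ccl19, Ccl21a, Ccl21b and Ccl21c, were not analysed here.

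Chemokines are small secreted proteins that call leukocytes to a place in tissue, and their receptors couple to inhibitory G proteins that steer cell movement. Each ligand draws the cells that carry its receptor, so the ligands of a dendritic cell (DC) bear on which T cells it meets, and its own receptors on where it goes. In the spleen, DCs that express CCR7 move into the T cell zone, and mature DCs are a known source of the ligands of CCR4, a receptor of regulatory T (Treg) cells and Th2 cells. Scavenging receptors (Ackr) bind ligands and remove them without G protein signalling.

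Total RNA of DCs sorted from mouse spleen was read on Affymetrix Mouse Gene 2.0 ST arrays, and all mice were 8 weeks old and of C57BL/6 background. WT DCs came from Lkb1f/f mice (3 arrays), which carry floxed alleles of Lkb1 (Stk11), a kinase upstream of AMPK and its relatives, without Cre. Lkb1-deficient DCs came from Cd11cCreLkb1f/f mice (3 arrays), in which Cre driven by the Cd11c promoter acts in DCs and in other cells that express Cd11c, some macrophages among them. By their labels the other 2 arrays hold DCs of wild-type C57BL/6 mice, 1 untreated (Control) and 1 after LPS overnight. A figure legend of the study gives Lkb1f/f for the LPS-treated mice instead. LPS is the bacterial lipopolysaccharide sensed by TLR4. The labels do not say whether an array holds 1 mouse or a pool, nor that arrays of a group come from separate mice, so p-values measure only the spread between these arrays. Values are log2 signals as deposited, and a difference of 1 is a change of a factor of 2.

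The median over all probe sets was 4.64, 4.09 and 3.40 on WT arrays 1, 2 and 3, 4.59, 4.07 and 3.35 on Lkb1-deficient arrays 1, 2 and 3, and 4.14 on both the Control and the LPS array. Levels thus differed by replicate number alike in both genotypes, and differences are given within each number as well as between group means. Stk11 read 5.96 to 6.83 on the WT arrays and 5.55 to 6.67 on the Lkb1-deficient arrays, lower in all 3 pairs by 0.05 to 0.43 with overlapping groups. Where its probes lie relative to the floxed exons is not given in the sources used here, so this signal does not check the deletion. The DC markers Itgax (Cd11c), Flt3, Zbtb46 and H2-Ab1 averaged 8.53 to 10.21 on the WT arrays. The 6 neutrophil markers averaged 5.18, 3.52 and 8.59 on WT arrays 1, 2 and 3 and 5.46, 4.24 and 8.35 on Lkb1-deficient arrays 1, 2 and 3, so they went with the replicate number.

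In WT DCs, 36 of the 54 genes had a mean signal above 4.04, the mean of the 3 WT array medians. The 6 ligands with the highest WT means were Ccl3, Ccl5, Cxcl9, Cxcl16, Ccl4 and Ccl9, from 11.42 ± 0.93 for Ccl3 to 8.30 ± 0.13 for Ccl9 (SD, n = 3). The 6 receptors with the highest WT means were Ccr7, Cxcr4, Ccr3, Cx3cr1, Cxcr5 and Ccr2, from 10.43 ± 1.29 for Ccr7 to 6.36 ± 0.19 for Ccr2 (SD, n = 3). Probe sets differ in how brightly they read, so this order chose which genes are shown and does not order their amounts of RNA. Cxcr4 (10.36 ± 0.81, SD, n = 3) lay within the spread of Ccr7.

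Between the genotypes, single genes of several target groups differed, in both directions. Ccl22, a CCR4 ligand, was 5.64-fold higher in Lkb1-deficient DCs, Ccr7 was 1.93-fold higher, and Cxcl16, the CXCR6 ligand, was 1.80-fold higher. Ccl4 was 2.23-fold lower and Ccl3 was 1.81-fold lower, both of them ligands that draw effector T cells and macrophages. The 3 ligands of CXCR3, a receptor of Th1 and effector CD8+ T cells, had mean log2 differences between -0.01 and 0.27. None of the 54 genes passed limma's test at an adjusted p of 0.05, which 0.00967% of all 41345 probe sets passed, and 1 had an unadjusted p under 0.05, where 0.36% of all probe sets had. Nor did any pass in the unpaired test that the study's methods name. When the replicate number entered limma as a block, Ccl22 passed, where 0.23% of all probe sets did, and 15 of the 54 genes had an unadjusted p under 0.05, where 11.4% of all probe sets had. All probe sets include 16004 without a symbol, so these shares are no matched baseline for the family.

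Ccl22 is made by mature DCs. It read 7.75, 6.56 and 5.72 on WT arrays 1, 2 and 3 and 10.13, 8.83 and 8.56 on Lkb1-deficient arrays 1, 2 and 3. Every Lkb1-deficient array lay above every WT array. The within-pair differences were 2.38, 2.27 and 2.84, with a mean of 2.49 (SE 0.63, limma adjusted p = 0.347), and with the block the SE was 0.15 and the adjusted p 0.0305 (limma). That call was lost when any 1 of the 3 pairs was left out, with adjusted p from 0.219 to 0.556 (limma), while the difference stayed between 2.32 and 2.61. Exact permutation of 3 against 3 arrays cannot go below p = 0.1.

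Ccl17 is the other CCR4 ligand. It read 4.39, 4.07 and 3.47 on the WT arrays, close to the array medians, and 5.22, 4.21 and 3.82 on the Lkb1-deficient arrays. The pairs differed by 0.83, 0.15 and 0.34, all upward, but the groups overlapped and the mean difference of 0.44 passed no adjusted test (adjusted p = 0.403, limma with the block). Ccl22, Cx3cl1 and Ccl17 are direct neighbours on mouse chromosome 8 in the RefSeq annotation, with no other protein-coding gene between them. Cx3cl1, which draws CX3CR1-bearing monocytes and effector lymphocytes, differed by 0.27, 0.03 and 1.09 in the pairs (mean 0.46, not past the adjusted threshold).

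Cxcl16, which draws activated T and NKT cells through CXCR6, read 10.09, 9.38 and 8.09 on the WT arrays and 10.85, 10.23 and 9.02 on the Lkb1-deficient arrays. The groups overlapped, because array 1 read high and array 3 low in both genotypes. Within pairs the differences were 0.76, 0.85 and 0.93, and their mean of 0.85 did not pass (adjusted p = 0.0850, limma with the block).

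Ccr7 read 11.64, 10.57 and 9.08 on the WT arrays and 12.14, 11.63 and 10.37 on the Lkb1-deficient arrays. The receptor read higher in each pair, by 0.51, 1.06 and 1.29, again with overlapping groups. Its mean difference of 0.95 had an adjusted p of 0.170 (limma with the block).

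**Figure D1:**
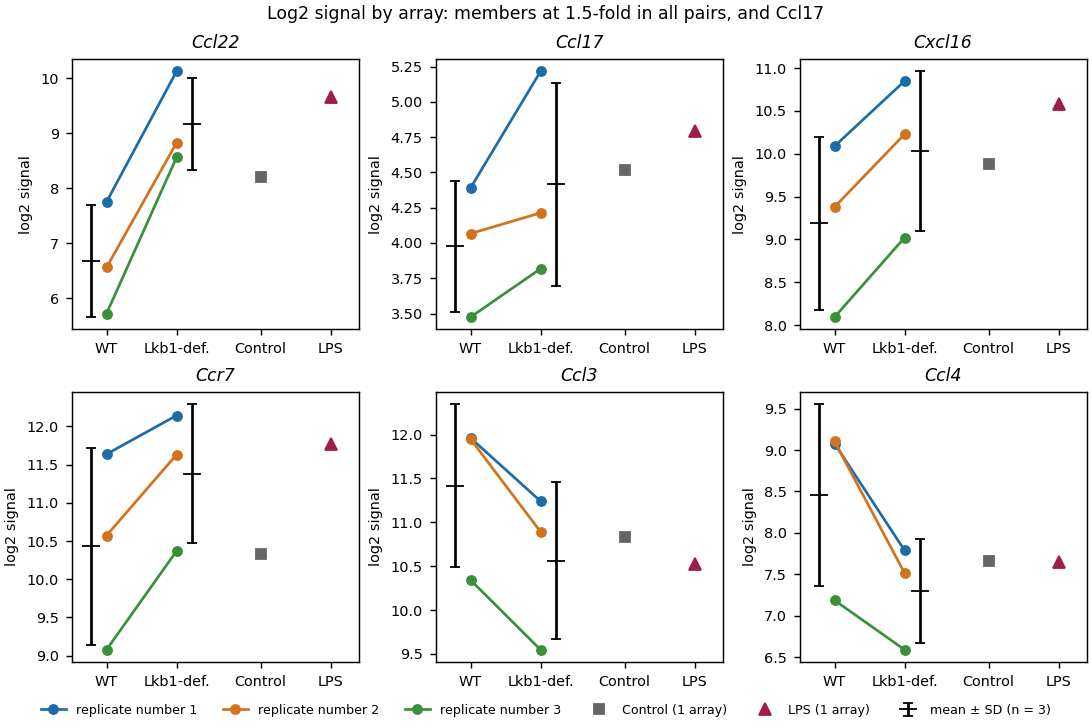
Log2 signal (vertical axis) of Ccl22, Ccl17, Cxcl16, Ccr7, Ccl3 and Ccl4 on each array, by group (horizontal axis). Lines join WT and Lkb1-deficient arrays of the same replicate number, black bars give the mean ± SD (n = 3), and the square and the triangle are the single Control and LPS arrays. For Ccl22 the Lkb1-deficient arrays (8.56 to 10.13) all lie above the WT arrays (5.72 to 7.75), and for Ccl3 and Ccl4 all 3 lines slope downward.

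Ccl3 and Ccl4, the macrophage inflammatory proteins MIP-1α and MIP-1β, went the other way. Ccl3 read 11.96, 11.95 and 10.34 on the WT arrays and 11.24, 10.89 and 9.55 on the Lkb1-deficient arrays. Ccl4 read 9.08, 9.10 and 7.19 on the WT arrays and 7.79, 7.52 and 6.59 on the Lkb1-deficient arrays. Both were lower in all 3 pairs, with pair differences of -0.72, -1.06 and -0.79 for Ccl3 and of -1.29, -1.59 and -0.60 for Ccl4, and in both the groups overlapped. The mean differences of -0.86 and -1.16 had adjusted p = 0.106 and 0.164 (limma with the block). Ccl5 (RANTES), the third of these inflammatory ligands, read 11.64, 11.44 and 10.12 on the WT arrays and 11.46, 10.91 and 10.05 on the Lkb1-deficient arrays, a mean difference of -0.26 that did not pass.

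Of the markers of other DC subsets, 2 of the CD11b+ subset of conventional DCs (cDCs) moved with Ccl3 and Ccl4. Cd4 differed by -1.33, -1.54 and -0.58 in the 3 pairs and Clec4a4 (DCIR2) by -0.99, -1.27 and -0.57. Of the 6 markers of that subset, 2 were at least 1.5-fold lower in the mean and lower in every pair, and the list averaged 9.47, 9.11 and 7.69 on the WT arrays and 8.98, 8.50 and 7.51 on the Lkb1-deficient arrays. In that list Itgam differed by 0.27, upward in every pair. Of the other marker lists, the macrophage marker Adgre1 (mean -0.86) and the NK cell marker Gzma (mean -1.29) met the same size rule downward, as 1 of 8 and 1 of 5 measured. Upward, the plasmacytoid DC marker Cox6a2 (mean 1.69) and the T cell marker Il7r (mean 1.06) met it, as 1 of 6 and 1 of 5 measured. The 6 plasmacytoid DC markers had mean differences from 0.05 to 1.69. The part of any of these cells in the lower Ccl3 and Ccl4 was not tested, and in RNA from a whole sort, fewer cells of a type and less RNA per cell cannot be told apart.

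Counted by a fixed size, a mean difference of at least 1.5-fold with the same sign in all 3 pairs, 3 genes were higher (Ccl22, Ccr7 and Cxcl16), where 1.53% of all probe sets were, and 2 were lower (Ccl3 and Ccl4), where 1.44% were. Leaving out 1 array at a time moved these means, to between 0.28 and 1.56 for Ccr7 and 0.30 and 1.35 for Cxcl16 (lowest without WT array 3), and to between -1.40 and -0.35 for Ccl3 and -1.79 and -0.80 for Ccl4 (smallest without Lkb1-deficient array 3). That leaves the replicate numbers, whose levels differ, unbalanced between genotypes. With whole pairs left out, the means lay between 0.782 and 1.175 for Ccr7, -0.93 and -0.76 for Ccl3, and -1.44 and -0.94 for Ccl4. The sign alone was the same in all pairs for 29 genes, 16 higher and 13 lower, or 53.7% of the family against 30.3% of all probe sets. All probe sets include 16004 without a symbol, and equal values within a pair count as no common sign. The share over all probe sets is therefore no matched baseline for the family. The groups did not overlap for 3 genes, Ccl22, Ccl9 and Ccr2, where they did not for 0.573% of all probe sets. The median difference over the family was 0.02, against -0.02 over all probe sets. The neutrophil attractant Cxcl1 lay just under the 1.5-fold line at 0.58, with pair differences of 0.16, 1.11 and 0.46, and Cxcl2 lay at 0.55.

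**Figure D2:**
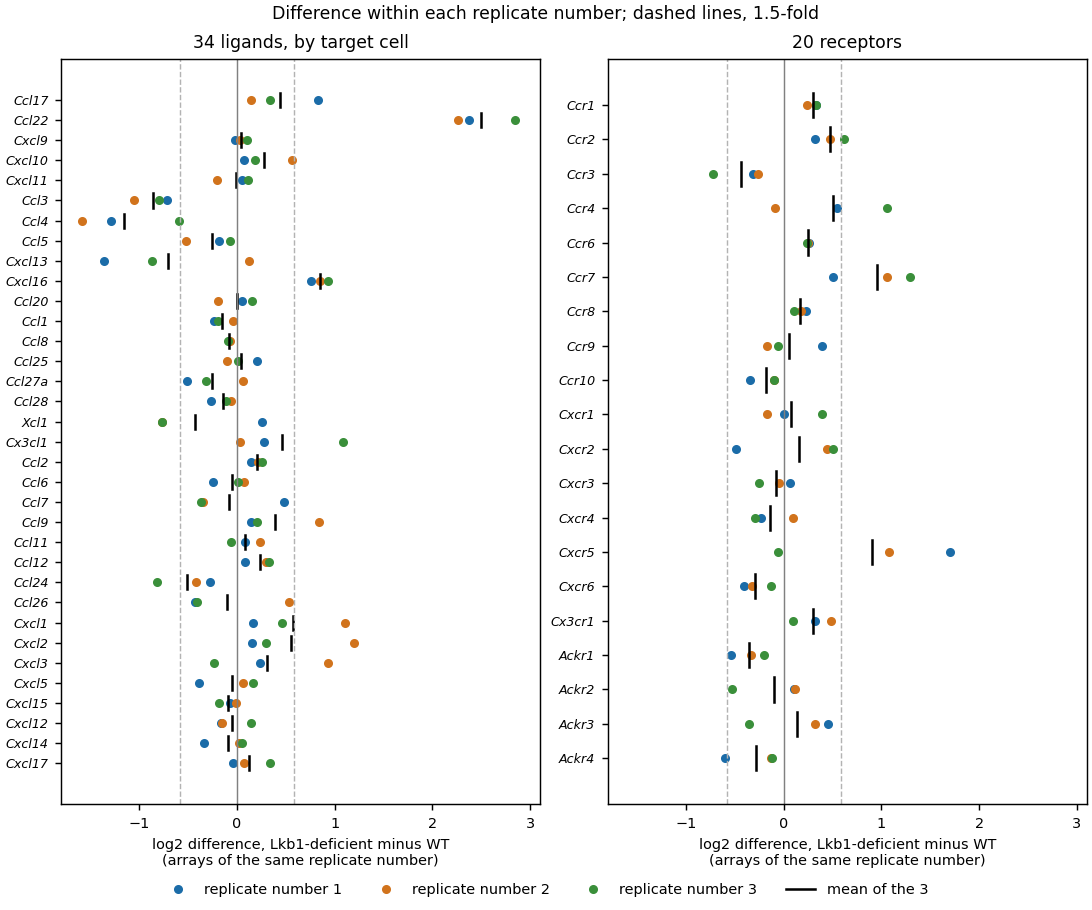
Log2 difference, Lkb1-deficient minus WT, within each replicate number (horizontal axis, coloured points) for the 34 ligands in order of target cell and the 20 receptors (vertical axis), with the mean of the 3 as a black bar and 1.5-fold as dashed lines. Ccl22 stands at 2.27 to 2.84, apart from the other genes, and the 3 points of Ccl3 and of Ccl4 all lie left of 0.

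For Ccl9 and Ccr2 the groups did not overlap although the differences were small. Each was larger than the range of the WT arrays, and close to (Ccr2) or below (Ccl9) the range of the Lkb1-deficient arrays. Ccl9, a CCR1 ligand that draws myeloid cells, read 8.42, 8.17 and 8.31 on the WT arrays and 8.56, 9.0 and 8.51 on the Lkb1-deficient arrays. The mean difference was 0.39, of which most lay in pair 2. Ccr2, the receptor that monocytes use to leave the bone marrow, read 6.47, 6.15 and 6.47 on the WT arrays and 6.79, 6.62 and 7.09 on the Lkb1-deficient arrays. It was higher by 0.32, 0.48 and 0.62 in the pairs, a mean of 0.47 (adjusted p = 0.244, limma with the block). Neither gene passed the adjusted threshold.

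The remaining receptors shown here did not move together. Cxcr5, which takes cells to the B cell follicle, read 6.35, 6.14 and 6.93 on the WT arrays and 8.05, 7.22 and 6.88 on the Lkb1-deficient arrays. Its pair differences were 1.70, 1.08 and -0.06, so pair 3 showed no increase, and the mean of 0.91 did not pass (adjusted p = 0.413, limma with the block). Markers of B cells, which carry Cxcr5, averaged 7.80, 6.80 and 8.65 on the WT arrays and 8.20, 6.12 and 7.98 on the Lkb1-deficient arrays, higher in pair 1 and lower in pairs 2 and 3. Cxcl13, the ligand of CXCR5, read 6.34, 5.17 and 5.25 on the WT arrays and 4.98, 5.29 and 4.39 on the Lkb1-deficient arrays, with signs that differed between pairs.

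Ccr3, best known from eosinophils, read 7.89, 9.64 and 8.46 on the WT arrays and 7.57, 9.37 and 7.74 on the Lkb1-deficient arrays, lower in each pair with a mean of -0.44 that did not pass. Cx3cr1, the fractalkine receptor of monocytes and some DCs, read 7.16, 6.66 and 6.08 on the WT arrays and 7.48, 7.14 and 6.18 on the Lkb1-deficient arrays, a mean difference of 0.30. Cxcr4, the receptor of Cxcl12, read 10.91, 10.74 and 9.43 on the WT arrays and 10.67, 10.83 and 9.14 on the Lkb1-deficient arrays, with signs that differed between pairs. Of these 3 receptors none passed the adjusted threshold. Ccr1 and Cxcr2, which neutrophils carry, had differences of 0.30 and 0.15, and their WT signals were highest on array 3, at 5.78 and 7.08, the array with the most neutrophil marker signal.

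The remaining genes are given by group. The 2 CCR8 ligands (Ccl1 and Ccl8) and the 3 ligands of CCR9 or CCR10 with a probe set (Ccl25, Ccl27a and Ccl28) had mean differences between -0.25 and 0.04. Ccl20, which draws Th17 and B cells through CCR6, differed by 0.05, -0.20 and 0.15 in the pairs. The 8 ligands of monocytes and eosinophils ran from -0.51 for Ccl24, lower in all 3 pairs, to 0.39 for Ccl9. The 4 scavenging receptors ran from -0.36 for Ackr1 to 0.14 for Ackr3. No gene of these groups passed the adjusted threshold with or without the block.

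Of 14 listed genes that accompany Ccr7 in mature migratory DCs, 12 had a probe set, and 6 of these were at least 1.5-fold higher and higher in every pair, with none lower. Of all probe sets 1.53% were higher and 1.44% lower by that rule. The other 6 were smaller, such as Ccrl2 (0.16) and Cd83 (0.05), which was lower in pairs 1 and 2. Socs2, a brake on cytokine signalling, rose by 2.30 (adjusted p = 0.0251), Fscn1, which bundles the actin of DC protrusions, by 2.03 (adjusted p = 0.0334), and Fabp5, a fatty acid carrier, by 1.64 (adjusted p = 0.0364), all in limma with the block. Fscn1 read 8.44, 8.69 and 7.45 on the WT arrays and 10.49, 10.34 and 9.83 on the Lkb1-deficient arrays, without overlap. Without the block, or with it when any 1 pair was left out, none of the 12 passed. The list was chosen with earlier results of these data known and is no independent evidence. By contrast, of 25 measured genes of receptor signalling and desensitisation 1 was higher by the same size rule, the receptor kinase Grk5 (0.61), and none was lower.

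Overnight LPS was compared on 1 array each, so no replicate supports these values and LPS minus Control was not itself tested, and Control and LPS share no array with the genotype comparison. A gene was counted at 1.5-fold or more. By this measure 12 of the 54 genes were higher on the LPS array, where 3.63% of 33649 probe sets were, and 7 were lower, where 3.95% were. Cxcl10 was 7.59-fold, Cxcl11 6.40-fold and Cxcl9 3.12-fold higher, and Ccl5 was 3.06-fold higher. Cxcl9, Cxcl10 and Ccl5 draw effector T cells. Cxcl11 is grouped with the CXCR3 ligands by name, but the annotation of the C57BL/6J genome lists it as a transcribed pseudogene. Ccr3 was lower by 5.17 on the log2 scale, to a signal below the array median and by 3.69 with 16 added to the linear values, so no fold is given for it. Ccr2 was 4.17-fold and Ccl6 3.37-fold lower. With 16 added to the linear values, Ccr2 moved from -2.06 to -1.56 and Ccl6 from -1.75 to -1.49 on the log2 scale. The difference of Cxcl11 also shrank, so the folds of these 3 genes depend on how dim signals are treated. For 17 of the 54 genes the 2 arrays held the same value, and for a larger share, 54.2%, of all probe sets. Such pairs of values carry no difference and cannot pass 1.5-fold, which lowers the shares over all probe sets more than those of the family.

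The CXCR3 ligands are induced by interferons in many cells. Cxcl9 read 10.36 on the Control and 12.004 on the LPS array, Cxcl10 7.08 and 10.004, and Cxcl11 4.37 and 7.05. On the genotype arrays Cxcl9 read 10.40, 10.52 and 9.02 in WT and 10.37, 10.54 and 9.12 in Lkb1-deficient DCs. Cxcl10 read 8.22, 6.87 and 6.19 in WT and 8.29, 7.44 and 6.37 in Lkb1-deficient DCs. Cxcl11 read 4.51, 3.88 and 2.98 in WT and 4.56, 3.67 and 3.09 in Lkb1-deficient DCs, and the annotation of the C57BL/6J genome lists it as a transcribed pseudogene. For each of these ligands the LPS array lay above all other 7 arrays, and WT and Lkb1-deficient arrays overlapped. The 3 genes lie side by side on mouse chromosome 5, with 1 other protein-coding gene between Cxcl9 and Cxcl10.

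The promoters of 4 ligands that were higher after LPS are shown as examples with and without motifs that LPS-activated factors are known to bind. Each run is the 250 bases before the annotated start on the strand of the gene (RefSeq, GRCm38.p6), and capitals mark matches on either strand to the 10-letter NF-κB consensus or to the core of the interferon-stimulated response element (GAAA, any 2 bases, GAAA).
Ccl22, chr8:94745434-94745683, plus strand: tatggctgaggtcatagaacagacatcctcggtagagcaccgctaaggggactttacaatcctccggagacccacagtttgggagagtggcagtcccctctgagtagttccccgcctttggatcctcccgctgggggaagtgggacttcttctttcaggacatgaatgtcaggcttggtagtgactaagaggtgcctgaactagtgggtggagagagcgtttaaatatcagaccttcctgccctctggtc
Cxcl9, chr5:92328080-92328329, minus strand: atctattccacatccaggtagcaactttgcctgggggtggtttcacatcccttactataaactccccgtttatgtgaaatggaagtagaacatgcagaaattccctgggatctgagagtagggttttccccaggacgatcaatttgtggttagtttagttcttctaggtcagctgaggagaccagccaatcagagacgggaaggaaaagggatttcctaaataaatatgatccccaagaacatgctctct
Cxcl10, chr5:92348890-92349139, minus strand: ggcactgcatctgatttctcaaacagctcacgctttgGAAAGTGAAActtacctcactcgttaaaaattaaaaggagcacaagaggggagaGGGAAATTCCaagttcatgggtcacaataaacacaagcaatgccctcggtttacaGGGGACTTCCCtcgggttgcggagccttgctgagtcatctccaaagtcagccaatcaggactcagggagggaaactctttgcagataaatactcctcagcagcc
Cxcl2, chr5:90903649-90903898, plus strand: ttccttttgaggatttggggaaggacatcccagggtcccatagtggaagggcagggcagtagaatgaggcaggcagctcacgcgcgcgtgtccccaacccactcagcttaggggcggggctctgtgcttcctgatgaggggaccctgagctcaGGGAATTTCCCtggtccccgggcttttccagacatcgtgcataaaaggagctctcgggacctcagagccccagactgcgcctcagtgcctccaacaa

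The Cxcl10 window holds the interferon element 213 to 204 bases before the start and NF-κB matches 159 to 150 and 104 to 94 bases before it, the second being a pair of matches that overlap by all but 1 base. The Cxcl2 window holds such an overlapping pair 97 to 87 bases before the start. The Ccl22 and Cxcl9 windows hold neither motif in these letters. The family had 40 genes with a promoter entry, with 44 entries between them. Of these genes 11 held the NF-κB consensus in at least 1 entry, and 2 (Cxcl10 and Cxcl14) held the interferon element. The 11 were Ackr2, Ccl1, Ccl9, Ccl20, Ccr1, Ccr3, Ccr6, Cxcl1, Cxcl2, Cxcl3 and Cxcl10. After LPS, Cxcl10 and Cxcl2 were past 1.5-fold upward, Ccr3 and Ccl9 past it downward, and the rest of the 11 under it. The consensus thus stood in genes that read higher, lower and little changed. Counted by entry and not by gene, 7.25% of 32851 mouse promoters of the same length held the consensus and 2.98% the interferon element. The gamma-activated site TTCNNNGAA stood in 3 of the genes, Ccl17, Ccr6 and Cxcl14, and in 7.02% of all promoters. A match is a description of the letters and not of a bound site.

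**Figure D3:**
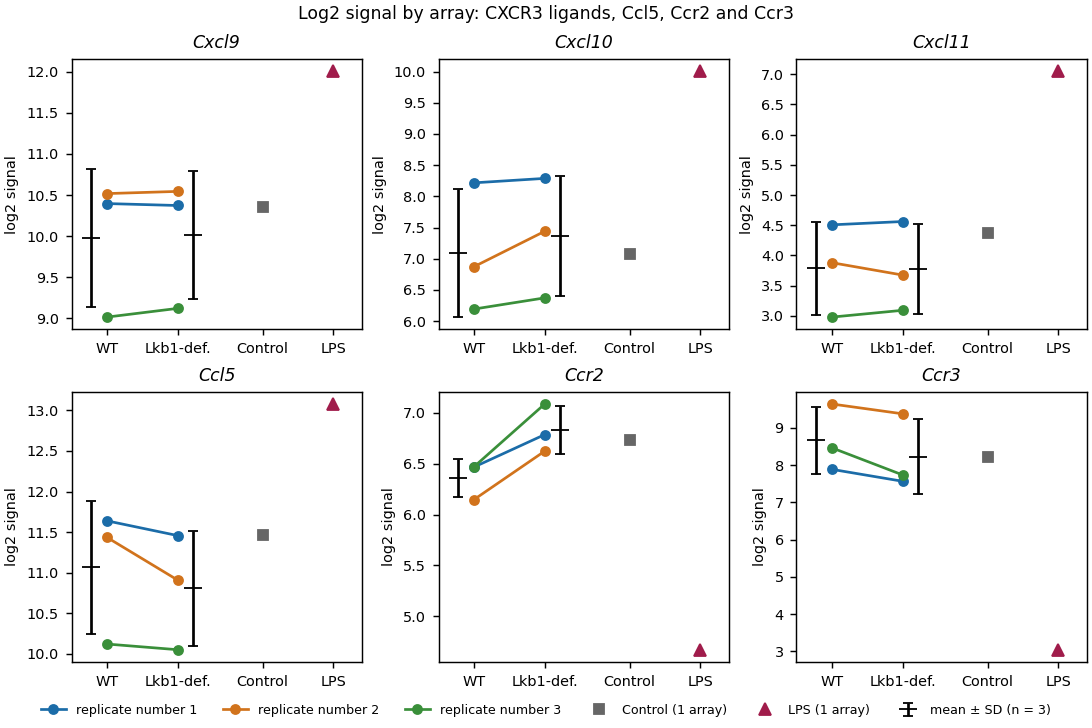
Log2 signal (vertical axis) of Cxcl9, Cxcl10, Cxcl11, Ccl5, Ccr2 and Ccr3 on each array, by group (horizontal axis), with lines between WT and Lkb1-deficient arrays of the same replicate number, black bars for the mean ± SD (n = 3) and single Control and LPS arrays. The LPS array stands above all others for Cxcl9, Cxcl10, Cxcl11 and Ccl5 and below all others for Ccr2 (4.67) and Ccr3 (3.05).

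Ccl5, which draws effector T cells and NK cells, read 11.46 on the Control and 13.08 on the LPS array, while Ccl3 read 10.83 and 10.53 and Ccl4 7.67 and 7.65. Of these 3 ligands Ccl5 passed 1.5-fold after LPS, and Ccl3 and Ccl4 did between genotypes. The effects of LPS and genotype were not shown to differ for Ccl3 (0.55, adjusted p = 0.616) or Ccl4 (1.14, adjusted p = 0.408) in limma with the block. In the RefSeq annotation Ccl5, Ccl9, Ccl6, Ccl3 and Ccl4 follow each other on mouse chromosome 11 with no other protein-coding gene between them, and their LPS differences in that order were 1.62, -1.08, -1.75, -0.31 and -0.02.

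The 3 genes at least 1.5-fold higher in the mean and higher in every pair in Lkb1-deficient DCs were also higher on the LPS array. Ccl9, Ccr2 and Cx3cr1, with smaller differences upward in all pairs, read lower on that array. Ccl22 read 8.20 on the Control and 9.67 on the LPS array (1.46 higher), Ccr7 10.33 and 11.77 (1.44 higher), and Cxcl16 9.88 and 10.59 (0.71 higher). These are all 3 of the genes that met that size rule upward between genotypes and 3 of the 12 past 1.5-fold after LPS. Ccl17 read 4.51 and 4.80. For Ccl22 the Control array (8.20) lay between the WT and the Lkb1-deficient arrays, and since array medians differ, levels across the 2 comparisons are given as read.

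The other 9 genes past 1.5-fold upward after LPS were under that size between genotypes or changed sign between pairs. Besides the CXCR3 ligands and Ccl5, they were Cxcr5, Ccl12, Cxcl13, Cxcl2 and Ccl2. Cxcr5 read 5.45 on the Control and 8.04 on the LPS array, a difference of 2.59, while 4 of 6 B cell markers were at least 1.5-fold lower on the LPS array and none was higher. Cxcl13, known as a product of stromal cells of the follicle, read 7.41 and 8.92. The 5 other stromal markers measured held equal values on both arrays and so carry no information on it, and the part of such cells was not tested.

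Ccl12 (MCP-5), a mouse ligand of CCR2, read 3.26 on the Control and 5.08 on the LPS array. On the genotype arrays it lay between 1.74 and 2.99, below the array medians. Ccl2 (MCP-1) read 4.41 and 5.01, a difference of 0.59 that is just past the 1.5-fold line of 0.585. Its WT signals of 6.53, 3.78 and 4.88 and its Lkb1-deficient signals of 6.67, 4.0 and 5.14 varied far more between replicate numbers than within them. Cxcl2 (MIP-2), a neutrophil attractant, read 6.79 and 7.71, against 8.20, 7.65 and 7.25 in WT and 8.36, 8.85 and 7.55 in Lkb1-deficient DCs.

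The 7 genes lower after LPS were Ccr3, Ccr2, Ccl6, Cx3cr1, Ccl9, Xcl1 and Ccr9. Ccr3 read 8.21 on the Control and 3.05 on the LPS array, Ccr2 6.73 and 4.67, and Cx3cr1 7.36 and 5.82. Each of these 3 receptors read lower on the LPS array than on any other array. Ccl6, a CCR1 ligand, read 7.42 and 5.67, against 7.53 to 7.90 in WT and 7.54 to 7.77 in Lkb1-deficient DCs. Ccl9 read 9.53 and 8.45.

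Ccr9, a receptor for homing to the gut that plasmacytoid DCs also carry, read 5.34 on the Control and 4.57 on the LPS array. With 16 added to the linear values Ccr9 differed by -0.51, under the 1.5-fold line. On the genotype arrays it read 5.83, 5.70 and 4.31 in WT and 6.22, 5.53 and 4.24 in Lkb1-deficient DCs. Xcl1, the ligand of the XCR1 receptor of CD8+ cDCs, read 7.19 on the Control and 6.20 on the LPS array. On the genotype arrays it read 6.20, 7.60 and 6.51 in WT and 6.46, 6.83 and 5.74 in Lkb1-deficient DCs, with no common sign in the pairs.

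**Figure D4:**
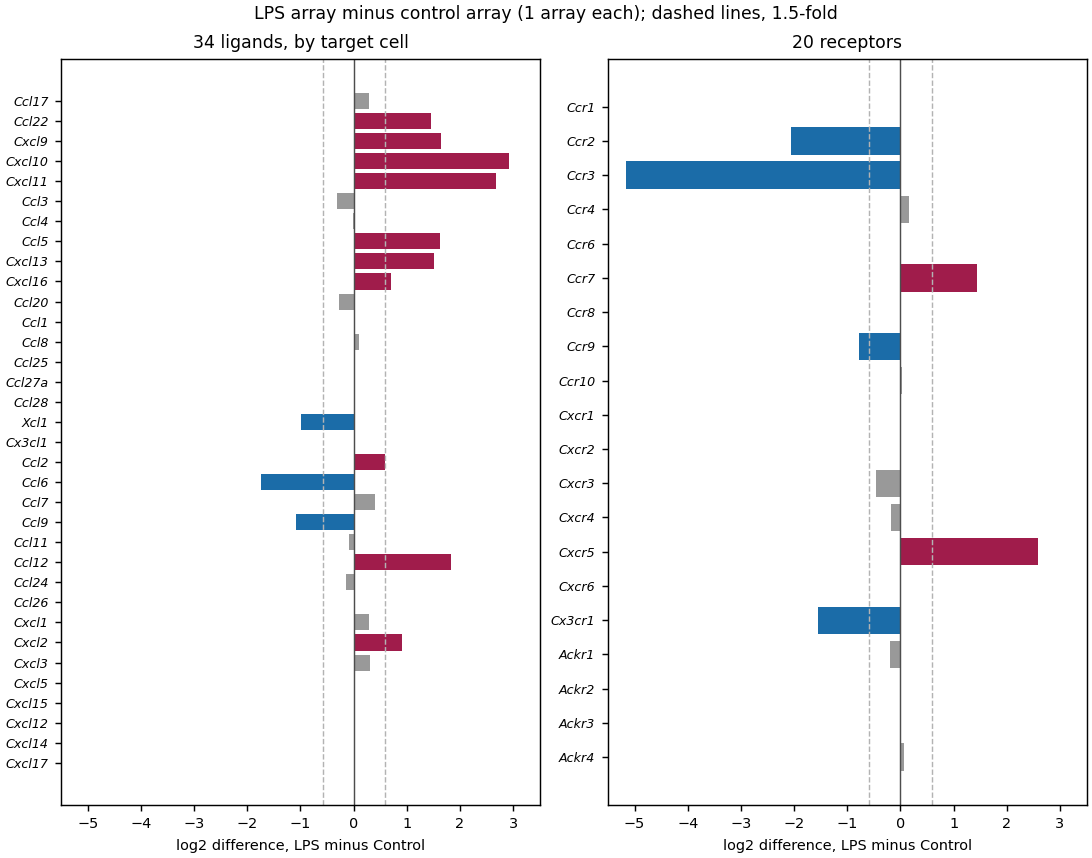
Log2 difference, LPS minus Control, 1 array each (horizontal axis, bars from 0), for the 34 ligands in order of target cell and the 20 receptors (vertical axis). Red bars are at least 1.5-fold higher, blue bars at least 1.5-fold lower and grey bars smaller than that. Cxcl10 (2.92), Cxcl11 (2.68) and Cxcr5 (2.59) reach farthest to the right, and Ccr3 (-5.17) farthest to the left.

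Many markers of the cDC subsets were lower on the LPS array as well. Of 6 CD8+ cDC markers 5 were at least 1.5-fold lower, and the list averaged 7.21 on the Control and 5.33 on the LPS array. Of 6 CD11b+ cDC markers 3 were lower, with list averages of 8.51 and 6.56, of which Cd209a differed the most (9.59 and 3.72), and Itgam was higher (7.87 and 8.91). Of 8 macrophage and monocyte markers 5 were lower and 1 was higher, with averages of 9.32 and 8.45. Of 6 plasmacytoid DC markers, Siglech (6.43 and 4.79) and Ccr9 itself were lower, Bst2 (7.33 and 8.65) was higher, and 2 held equal values. Of 6 neutrophil markers 4 were higher and none was lower, with averages of 3.37 and 4.18. Itgax read 10.31 and 7.58, while the DC genes Flt3 (9.79 and 9.69) and Zbtb46 (7.01 and 6.91) differed little. The part of a changed mix of cells in the lower Ccr3, Ccr2, Cx3cr1, Ccl6, Ccl9, Xcl1 and Ccr9 was not tested. The mature migratory DC genes went the other way, with 10 of 12 at least 1.5-fold higher and none lower, and of 25 receptor signalling genes 1 was higher and 7 were lower. Of all probe sets with both values, 3.63% were higher and 3.95% lower by that size. These lists were chosen with earlier results of these data known, so their counts are no independent evidence.

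Whether LPS and Lkb1 deletion differed in effect was tested with limma on all 8 arrays, as the LPS difference minus the genotype difference, with the spread taken from the genotype arrays. None of the 54 genes passed, where 0.00297% of 33649 probe sets did, and 4 had an unadjusted p under 0.05, where 0.279% of probe sets had. In a fit chosen after the data were seen, which adds the replicate block and takes Control and LPS as a pair of their own, 9 genes passed, where 0.981% of probe sets did. In that fit alone the LPS difference exceeded the genotype difference for Cxcl10 (by 2.65, adjusted p = 0.0107), Cxcl11 (2.69, adjusted p = 0.00713), Cxcl9 (1.61, adjusted p = 0.0248), Ccl5 (1.87, adjusted p = 0.0297) and Ccl12 (1.59, adjusted p = 0.0312). It lay below the genotype difference for Ccr3 (-4.73, adjusted p = 0.00230), Ccr2 (-2.53, adjusted p = 0.00776), Cx3cr1 (-1.84, adjusted p = 0.0249) and Ccl6 (-1.70, adjusted p = 0.0292). For Ccl22 the difference of -1.03 did not pass (adjusted p = 0.234), nor did that of Ccr7 (0.49). The LPS difference is 1 array against 1, so these p-values hold no spread of LPS-treated or untreated mice, and they assume that the lone arrays vary like the pairs.

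**Figure D5:**
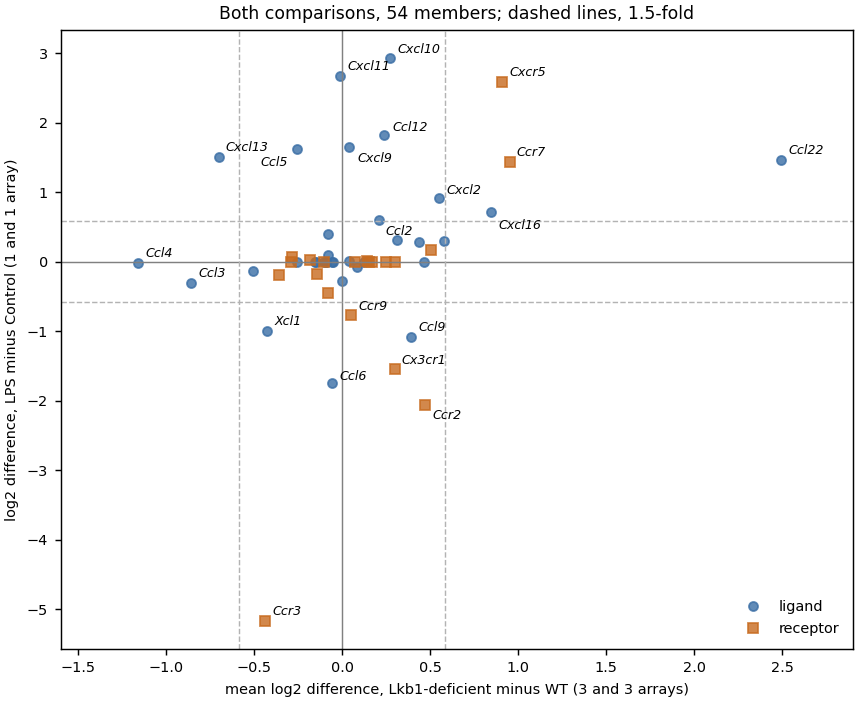
Each of the 54 genes by its mean log2 difference between Lkb1-deficient and WT DCs (horizontal axis, 3 and 3 arrays) and its log2 difference between the LPS and the Control array (vertical axis, 1 and 1), with ligands as circles, receptors as squares and 1.5-fold as dashed lines. Ccl22, Ccr7, Cxcl16 and Cxcr5 lie past both lines in the upper right, the CXCR3 ligands near 0 on the horizontal axis, and no gene lies past both lines in the lower left.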

How the data were processed

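Sorted splenic DCs were profiled on 8 Affymetrix Mouse Gene 2.0 ST arrays. The values, deposited by the authors in 1 table, are on a log2 scale, as read from their range (0.148 to 13.4). The study's methods name GeneSpring and the submitters' processing notes name MAS5, without a version. How probes were summarised and normalized is not given in the sources used here, so the differing array medians cannot be traced to a step, and no depth exists beyond the number of arrays. Of 41345 probe sets, 33649 had Control and LPS values, and 23521 carried 1 symbol, 1820 several and 16004 none. All 54 genes were found in the RefSeq table by gene number.

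Genotypes were compared with limma 3.58.1 (R 4.3.3) on the values as deposited, over all probe sets with Benjamini-Hochberg adjustment at 0.05, unpaired as in the study's methods. limma pooled the spread into 1 SE of 0.63 for every probe set. The numbers 1 to 3 are shared by the genotypes without a label that pairs mice. Deviations from the group means correlated between same-numbered arrays (r = 0.849, 0.795 and 0.738). By the criterion that every pair exceed 0.1 the numbers pair the arrays, and a fit with the replicate block is given where it changes a call. Correlations between other numbers were negative (-0.611 to -0.132). Deviations from a mean of 3 arrays sum to 0, which favours negative values there, so they add no support for pairing. LPS and Control (1 array each) were compared by size alone, and the LPS difference was set against the genotype difference in limma on all 8 arrays, with the spread of the genotype arrays. The fits were tested on simulated data.

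Genes are shown by array if they are a CCR4 or CXCR3 ligand or Ccr7, passed 1.5-fold in all pairs or after LPS, or were among the 6 ligands and 6 receptors with the highest WT means. Members, lists and this rule were chosen with earlier results of these data known. Alternatives were the block, the methods' t-test, limma-trend, quantile normalization, median centring, 16 added to the linear value, leaving out dim probe sets, averaging probe sets of a gene, and leaving out arrays or pairs.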

Additional observations from a re-analysis of the deposited data

How the results depend on the processing

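With 3 arrays a genotype and 1 each for Control and LPS, the number of arrays limits the precision, and most calls rest on the block. Between genotypes no gene of the family passed without it, under any alternative. With the replicate block 1 passed (Ccl22), and with the block and 1 pair left out 0 passed. The block changed no other genotype call. The count of genes at least 1.5-fold higher in the mean and higher in all pairs was 3. It was 5 after each array was centred on its median (Cxcl1 and Cxcl2 joining), and 5 to 6 without 1 replicate number. The count of lower genes was 2, and 2 to 4 without 1 number. Ccl22, Ccr7 and Cxcl16, and Ccl3 and Ccl4, were in every such count. When the LPS effect was set against the genotype effect, the added replicate block gave 9 calls against 0 without it, and the cause was not tested. The LPS counts were 12 higher and 7 lower, and 11 (without Ccl2) and 6 (without Ccr9) with 16 added to the linear value. That setting moved the LPS difference of Ccr3 to -3.69, of Ccr2 to -1.56, of Ccl6 to -1.49, of Ccl12 to 0.965 and of Cxcl11 to 2.015. Of the single-gene genotype differences, Cxcl11 changed sign to 0.0105 after quantile normalization and to 0.0258 after centring. Leaving out 1 array or pair changed the sign of 10 genes. Dropping 1 array leaves the replicate numbers unbalanced between genotypes, so these ranges also hold the level differences between numbers. The ranges were -0.0446 to 0.47 for Ccl12, -0.49 to 0.94 for Ccl2, -0.73 to 0.12 for Ccl5, -0.15 to 0.0411 for Ccl6 (0.0401 without WT replicate 1), -1.01 to 0.0512 for Ccr3, -0.44 to 0.59 for Ccr9, -0.19 to 0.83 for Cxcl10, -0.42 to 0.35 for Cxcl11, -0.44 to 0.48 for Cxcl9 and -0.61 to 0.39 for Cxcr4. With the block and 1 pair left out, Ccl2 stayed between 0.18 and 0.24. In the block fits with 1 pair left out, Ccl6 changed to 0.0411 and Ccr9 to -0.1181 without replicate number 1, and Cxcl11 to 0.0837 without number 2. The other 360 single-gene genotype values kept their sign and their side of the threshold.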
